A study of Drosophila melanogaster with 24 samples.

Results

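Embryos depleted of the histone deacetylase HDAC3 were set against control embryos by RNA-seq, over all genes. The 8 libraries of this comparison (4 HDAC3 shRNA and 4 control) were chosen by genotype from the 24 libraries of the series, and the replicate number, which the genotypes share, was taken as a pairing. HDAC3 shRNA embryos had the genotype tub-GAL4/shRNA HDAC3, in which the maternal driver matalpha4-GAL-VP16 expresses a short hairpin RNA directed at HDAC3 in the female germ line. Control embryos (tub-GAL4/+) carried that driver without a hairpin. Both groups were whole embryos aged 2 to 4 h at 25°C, a window that spans cellularisation of the blastoderm and gastrulation. Because the study crossed flies that carried the driver with each other to obtain the embryos, the depletion is of the maternal HDAC3 product, and the hairpin stock is mutant for y, sc, v and sev, which the driver stock is not. The other 16 libraries, from embryos that carried the hairpin and an HDAC3 rescue transgene, entered the fit to estimate the spread and the replicate effects, and their levels are given only where they show how particular a value was to the knockdown.

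HDAC3 is a class I histone deacetylase that is active in a complex with the corepressor SMRTER, the fly counterpart of SMRT and NCoR, and the WD-repeat protein Ebi. Transcription factors such as nuclear receptors bring such complexes to enhancers and promoters, where removal of acetyl groups from histones lowers transcription. In the fly embryo the first nuclear divisions run on RNA and protein laid down by the mother, and the zygotic genome is switched on during the window sampled here, so that maternal transcripts are cleared while patterning genes and later tissue genes come on.

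The hairpin's target could not be read from these counts. HDAC3 (FBgn0025825, 3R from 5472810 to 5474600 in dm6) was at 0 in all 8 libraries, as was CG45100 (FBgn0266539), which has the same annotated exons. The depletion could therefore not be checked in these counts, and the genotypes are those of the labels. For shRNA embryos the study reports very little HDAC3 RNA from this sequencing and an almost complete loss of the protein. Of the genes beside HDAC3, Snr1 (FBgn0011715), a subunit of the Brahma remodelling complex, had 371, 313, 251 and 348 CPM in HDAC3 shRNA replicates 1 to 4, against 346, 377, 221 and 292 CPM in control (fold change on the log2 scale 0.07, SE 0.091, adjusted p = 0.552). CPM is the count scaled to 1e+06 library counts after scaling by trimmed mean of M-values, and an adjusted p is from edgeR's quasi-likelihood test with Benjamini-Hochberg adjustment over the 10003 genes tested. Hcs (FBgn0037332), which encodes a biotin-protein ligase, had 10.3, 9.46, 6.39 and 4.27 CPM in the knockdown, against 5.71, 4.35, 5.07 and 4.26 CPM in control, with overlapping groups and a change under 2-fold (0.56, SE 0.20, adjusted p = 0.0277).

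Far more genes were lower than higher in the knockdown, and the genes that fell were of low level and fell further. Called genes had an adjusted p of 0.05 or less and at least a 2-fold change. Of the 10003 genes that passed the filter on low counts, out of 17559 in the table, 275 (2.75%) were called higher in HDAC3 shRNA and 1734 (17.3%) lower, in all 20.1%, so that lower genes made up 86.3%. The median log2 fold change was 1.34 for the genes called higher and -1.89 for those called lower. At least 4-fold changes made up 13.1% of the higher calls (36 genes) and 46.1% of the lower ones (799 genes), and 14 higher and 284 lower genes reached 8-fold. Genes called higher had a median of 24.6 CPM in HDAC3 shRNA and 8.95 CPM in control, and genes called lower 0.745 CPM in HDAC3 shRNA and 3.23 CPM in control, against 21.2 and 21.8 CPM over all tested genes. Among genes at 1 to 3 CPM in control 45.3% were called lower, and among genes at 100 CPM or more 1.83%. Non-coding RNA genes made up 12.5% of the annotated genes called higher (33 genes), 1.29% of those called lower and 2.74% of all tested, and genes with a single exon 18.9%, 10.4% and 10.9%.

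**Figure D1:**
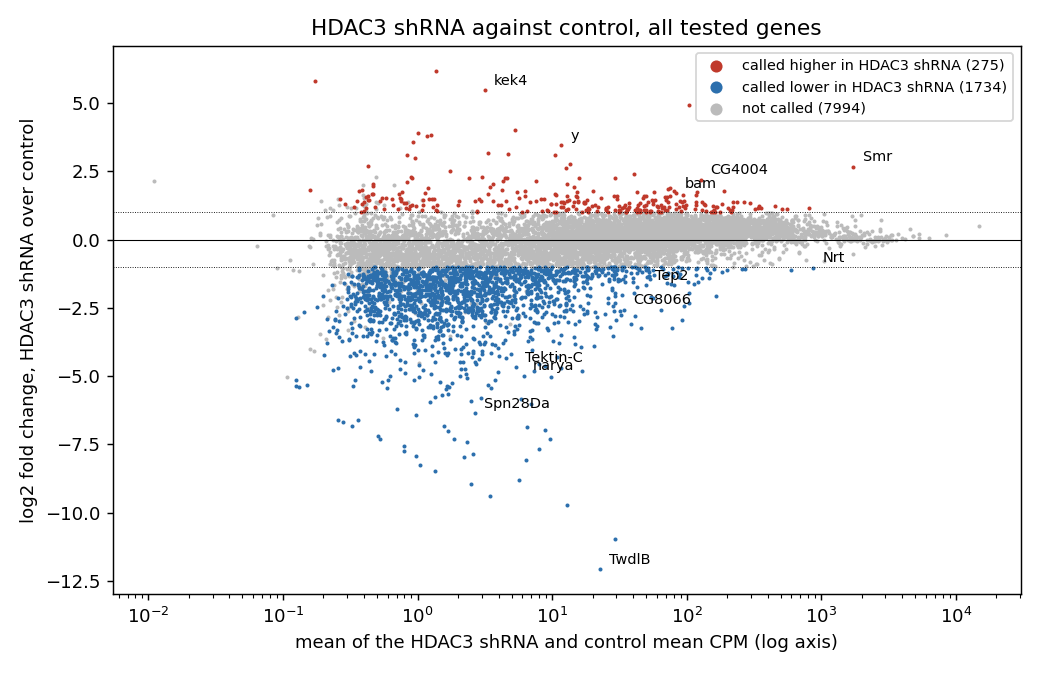
Log2 fold change of HDAC3 shRNA over control (y axis) against the mean of the 2 group means in CPM (x axis, log scale) for the 10003 tested genes, with the 275 called higher in red, the 1734 called lower in blue and the rest in grey. The blue points lie mostly at the low end of the CPM axis and reach further from 0 than the red ones, and the dotted lines mark a 2-fold change.

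The calls leaned on the replicate pairing and on a few libraries. Library totals ran from 19.4 to 26.6 M counts in HDAC3 shRNA and from 13.5 to 20.3 M in control. Without the replicate number in the model, edgeR called 140 genes higher and 697 lower, of which 136 and 697 were among the calls with it. The leading principal component of the 8 libraries held 63.5% of their variance, with HDAC3 shRNA at -102, -76.1, 13.2 and -13.8 and control at -2.08, 14.4, 98.7 and 67.2 in replicates 1 to 4, so that the genotypes differed within each pair and the pairs differed from each other in the same direction. Genes called lower took 0.329%, 0.43%, 1.26% and 1.03% of the counts of the HDAC3 shRNA libraries, against 1.56%, 1.56%, 3.6% and 2.72% of the control libraries. Control replicate 3 held the highest value for 1037 of these 1734 genes and HDAC3 shRNA replicate 1 the lowest for 1200. In the 16 rescue libraries, which are in neither group but shared the fit, 84.6% of the genes called lower stood higher in replicates 3 and 4 than in replicates 1 and 2, against 24% of those called higher and 55.9% of all tested genes. The part of this axis in the calls was not tested. Results below are therefore also given for 2 replicate sides that share no library, replicates 1 and 2 on one and replicates 3 and 4 on the other.

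**Figure D2:**
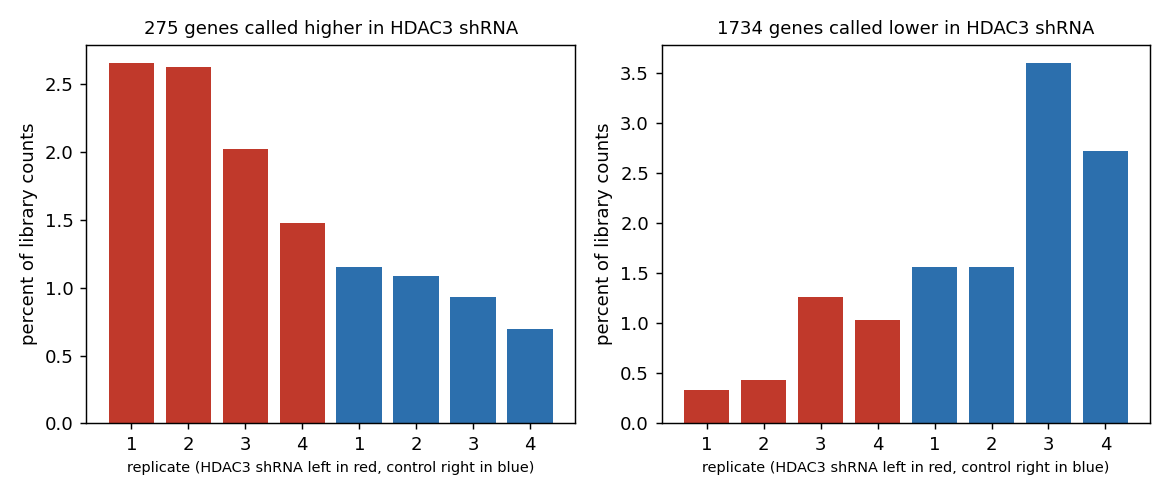
Percent of all counts in each library (y axis) that came from the 275 genes called higher (left panel) and from the 1734 genes called lower (right panel), in HDAC3 shRNA replicates 1 to 4 (red) and control replicates 1 to 4 (blue). Within each replicate number the red bar is above the blue one on the left and below it on the right, and both genotypes carry more of the lower-called genes in replicates 3 and 4.

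In replicates 1 and 2 alone 377 genes were called higher and 1999 lower, and in replicates 3 and 4 alone 243 and 943. Of 9444 genes tested on both sides, 111 were higher on both, which is 29.4% of the first list and 45.7% of the second, and 709 were lower on both (35.5% and 75.2%). The number called in opposite directions was 2. The 8 libraries did not overlap between genotypes for 495 genes (4.95%) with the knockdown above and 867 (8.67%) with it below, and the called genes among these were 165 higher (1.65% of all tested) and 761 lower (7.61%).

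Some genes with a small adjusted p also had steady levels across the 4 replicates of each genotype. Those in this paragraph were picked after their values were seen, for both properties. CG8066 (FBgn0038243, 3R from 14567611 to 14568847) had 7.7, 8.83, 9.83 and 13.3 CPM in HDAC3 shRNA, against 61.9, 54.9, 56.2 and 61.4 CPM in control. The highest knockdown library was well below the lowest control library (log2 fold change -2.57, SE 0.13, adjusted p = 2.12e-10), and 7 neighbouring genes from 3R 14513901 to 14569871, among them the cystatin gene Cys (-3.53, SE 0.35, adjusted p = 3.65e-07; 90.7% of its exon bases lie inside an antisense RNA gene), were all called lower. CG8066 was also low in the rescues, with means of 14.2 CPM (WT), 14.9 CPM (Y303F), 12.6 CPM (K26A) and 24.7 CPM (HEBI), and Cys averaged 0.472 to 1.17 CPM there, against 3.4 to 4.59 CPM in control. Tep2 (FBgn0041182), a complement-like thioester protein of innate immunity, had 23.8, 22.8, 26 and 22.4 CPM in the knockdown, against 89, 73, 75.7 and 67.2 CPM in control. It fell by 1.68 (SE 0.11, adjusted p = 2.45e-09), again with no overlap, and averaged 51.5 to 76.8 CPM in the rescues. Prx6c (FBgn0033518), a peroxiredoxin, had 7.47, 10.8, 10.4 and 9.84 CPM in HDAC3 shRNA, against 36.5, 46.3, 36.4 and 51 CPM in control (-2.13, SE 0.19, adjusted p = 8.60e-08). Lsd-1 (FBgn0039114), a lipid droplet perilipin, had 2.86, 2.88, 4.47 and 4.31 CPM in the knockdown, against 20, 15.3, 14.1 and 19.3 CPM in control (-2.25, SE 0.19, adjusted p = 7.22e-08). These 5 genes were also called on both replicate sides and without the replicate block.

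On the rising side, CG17919 (FBgn0037433, 3R from 6344029 to 6345087) had 59.7, 58.7, 34 and 42.9 CPM in HDAC3 shRNA, against 9.8, 10.4, 8.33 and 10.9 CPM in control (fold change on the log2 scale 2.27, SE 0.12, adjusted p = 2.12e-10). Its means in the rescues, 24.7 to 31.7 CPM, were above the highest control library too. It lies just beyond the Osiris gene cluster described below, whose last member Osi20 fell (-2.67, adjusted p = 0.0156). GlyRS (FBgn0027088), the glycyl-tRNA synthetase, had 153, 139, 119 and 130 CPM in HDAC3 shRNA, against 59.8, 61.8, 58.9 and 61.1 CPM in control (1.16, SE 0.09, adjusted p = 2.32e-08), although scaling by library totals put it just under 2-fold (0.95). The 4 control libraries were close to each other, and every knockdown library was above them. puc (FBgn0243512), the phosphatase that restrains JNK signalling, had 183, 217, 98.3 and 75.8 CPM in HDAC3 shRNA, against 55, 62, 33.2 and 29 CPM in control (1.62, SE 0.12, adjusted p = 1.10e-08). Both genotypes were higher for puc in replicates 1 and 2, and the groups did not overlap.

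The corepressor partner of HDAC3 rose in the knockdown. Smr (FBgn0265523, X from 12684203 to 12742618), which encodes SMRTER, had 5698, 2509, 2411 and 1361 CPM in HDAC3 shRNA, against 851, 514, 362 and 185 CPM in control. Each knockdown library was several times its own control and the lowest of them was above the highest control (fold change on the log2 scale 2.67, SE 0.22, adjusted p = 4.40e-08; 0.0225 without the block). The rescue means of Smr were 1454 CPM (WT), 1315 CPM (Y303F), 1174 CPM (K26A) and 606 CPM (HEBI). Some genes inside and next to Smr were also higher. The non-coding RNA gene lncRNA:CR43963 (X from 12717624 to 12730953), which lies within its span, rose by 2.27 (SE 0.36, adjusted p = 5.23e-05), whereas CG15725 within the same span gave 0.83 (SE 0.55, adjusted p = 0.208). CG4004 (FBgn0030418, X from 12744212 to 12749785), the next tested gene past the end of Smr, had 213, 245, 176 and 205 CPM in HDAC3 shRNA, against 51.8, 46.2, 36.5 and 48.2 CPM in control (2.19, SE 0.13, adjusted p = 8.54e-10). Its 4 knockdown libraries were close to each other, unlike those of Smr, and its rescue means lay between the genotypes at 65.6 to 98.2 CPM.

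Smr was the single call among 20 tested corepressor and deacetylase genes (2 were called higher without HDAC3 shRNA replicate 1), and the median was 0.26 (0.06 when scaled by library totals). ebi (FBgn0263933) had 615, 512, 346 and 334 CPM in HDAC3 shRNA, against 423, 382, 200 and 179 CPM in control. It was higher in the knockdown within every pair, but the groups overlapped and the change was under 2-fold (0.67, SE 0.091, adjusted p = 1.06e-05; 0.349 without the block). Of 19 tested Polycomb group genes, which maintain silencing through another set of histone marks, 0 were called in edgeR and 0 in DESeq2 with the block, while 9 had an unadjusted p under 0.05. The smallest p values belonged to Sfmbt (0.55, adjusted p = 8.87e-05) and ph-p (-0.76, adjusted p = 9.26e-04), both under 2-fold, and 1 gene was called higher without HDAC3 shRNA replicate 1. Msp300, a giant nuclear envelope and muscle protein gene that is also on the muscle list, was the single call among 11 nuclear lamina and envelope genes (-1.20, SE 0.21, adjusted p = 1.16e-04; 0.0717 without the block).

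**Figure D3:**
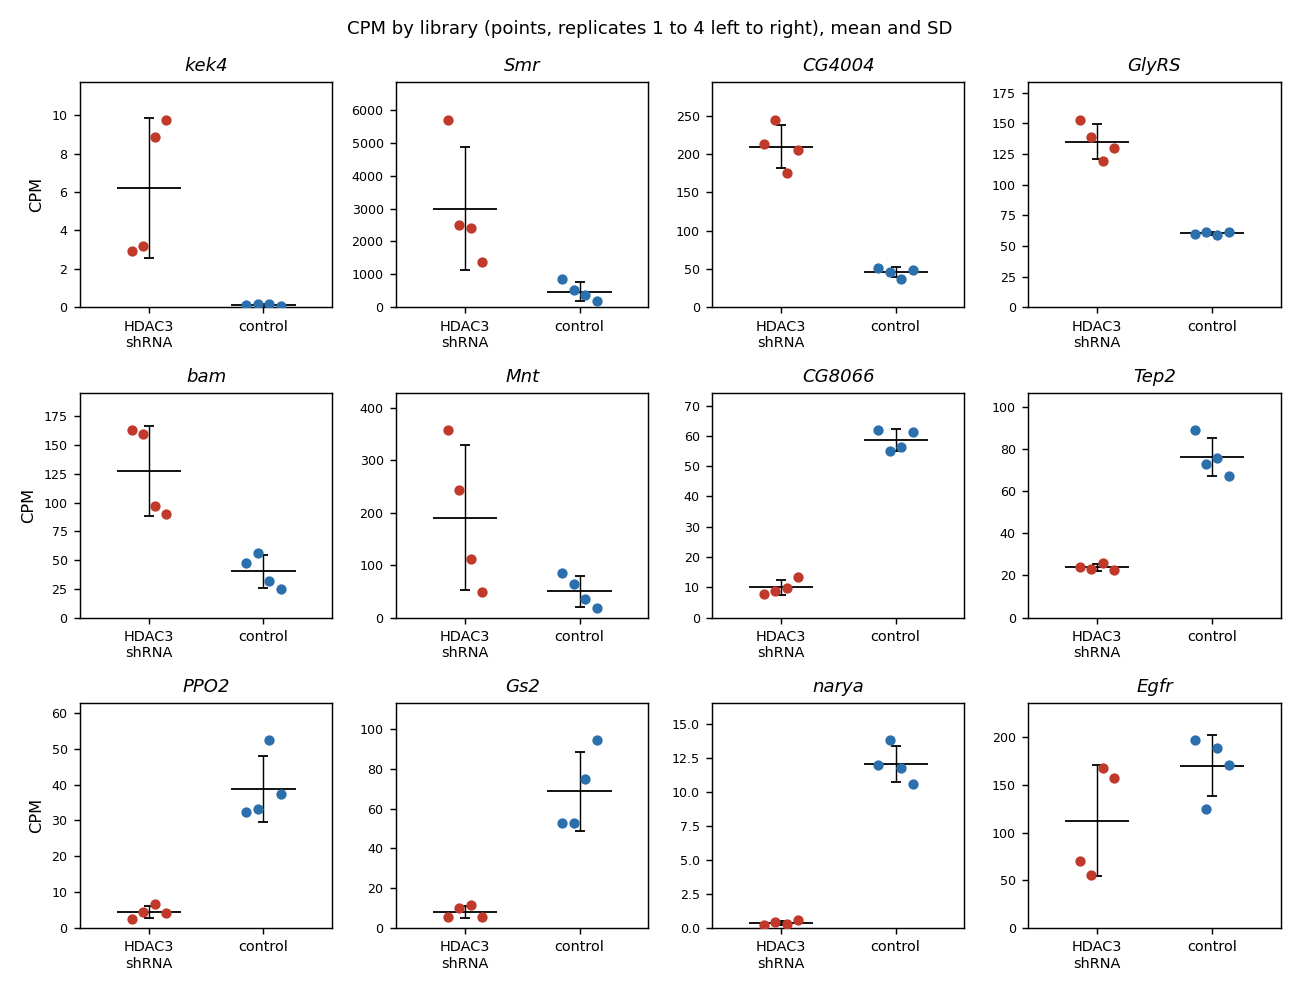
CPM (y axis, from 0) of 12 genes in the 4 HDAC3 shRNA libraries (red) and the 4 control libraries (blue), with the group mean and SD in black. For kek4, Smr, CG4004, GlyRS and bam all red points lie above all blue ones, for CG8066, Tep2, PPO2, Gs2 and narya below them, and for Mnt and Egfr the groups overlap.

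Of the genes that the study itself singled out, sd, CG32772, CG17698 and Cad99C were chosen partly on these samples. Their direction is therefore not independent evidence. sd (FBgn0003345), the TEAD factor of the Hippo pathway, had 104, 109, 97 and 65 CPM in HDAC3 shRNA, against 33.8, 26.8, 58.3 and 47.7 CPM in control (fold change on the log2 scale 1.19, SE 0.22, adjusted p = 2.69e-04). The change was 1.79 in replicates 1 and 2 and 0.55 in replicates 3 and 4. CG32772 (FBgn0052772) had 86.1, 91.7, 57.7 and 53.8 CPM in the knockdown, against 21, 18.8, 30.4 and 25.1 CPM in control (1.58, SE 0.22, adjusted p = 1.20e-05), and it too was under 2-fold in replicates 3 and 4 (0.97). The predicted kinase gene CG17698 (FBgn0040056) had 13.8, 31.8, 11.2 and 7.37 CPM in HDAC3 shRNA, against 5.57, 6.56, 5.44 and 4.64 CPM in control (1.32, SE 0.36, adjusted p = 0.00473; 0.08 without the block). For these 3 genes all knockdown libraries lay above the control ones. The cadherin gene Cad99C (FBgn0039709) had 2.45, 3.32, 13.7 and 5.53 CPM in HDAC3 shRNA, against 18.9, 12.5, 26.8 and 20.4 CPM in control. Only HDAC3 shRNA replicate 3 reached the control range (-1.93, SE 0.27, adjusted p = 1.71e-05; 0.0959 without the block). The BMP inhibitor gene sog (FBgn0003463) had 62.8, 35.2, 140 and 133 CPM in HDAC3 shRNA, against 200, 79.6, 185 and 138 CPM in control, and was not called (-0.84, SE 0.26, adjusted p = 0.0102). It passed without HDAC3 shRNA replicate 4 (-1.06) or control replicate 3 (-1.04), and the change was -1.43 in replicates 1 and 2 and -0.24 in replicates 3 and 4. sna (FBgn0003448), the mesoderm repressor, was likewise not called, at 48.5, 37.7, 102 and 157 CPM in HDAC3 shRNA and 119, 91.4, 125 and 131 CPM in control (-0.68, SE 0.25, adjusted p = 0.0253). For sog the study used in situ hybridization and reports partial de-repression in the mesoderm of knockdown embryos. A whole-embryo level does not measure such a pattern.

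Genes of the cuticle and its chitin scaffold, which the epidermis secretes late in embryogenesis, were lower in the knockdown. Of 63 tested cuticle protein genes 51 were called lower and 1 higher, with a median log2 fold change of -3.66. The lower count was 30 without the block, 32 without control replicate 3 and 16 with only the 8 libraries in the fit, and 11 members were called in both replicates 1 and 2 and replicates 3 and 4. Cpr72Ec (FBgn0036619) had 0.175, 0.195, 0.147 and 0.274 CPM in HDAC3 shRNA, against 1.08, 1.85, 1.09 and 1.23 CPM in control (-2.72, SE 0.47, adjusted p = 1.16e-04). TwdlB (FBgn0039436), of the Tweedle cuticle family, was at 0 in all 4 HDAC3 shRNA libraries, against 1.63, 19.6, 160 and 0.0533 CPM in control. With 3 counts over the group as the limit, its mean was at least 1265-fold below the control mean (adjusted p = 0.0119; 0.0941 in replicates 3 and 4 alone). This bound is for the means and not for each pair, as control replicate 4 was itself at 0.0533 CPM. The control level rested on replicate 3, and the fitted value, which depends on the prior count, was -12.08, with -10.62 without control replicate 3, -10.83 without HDAC3 shRNA replicate 3 and -12.79 without control replicate 4. A set of 6 Tweedle genes in a row (3R from 26619118 to 26641054) was called lower, although TwdlM (0.0924), TwdlB and TwdlL (0.0808) had an adjusted p above 0.05 in replicates 3 and 4 alone. The summed level of the cuticle list was 10.6 to 57.5 CPM in HDAC3 shRNA and 42.8 to 1403 CPM in control.

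The Osiris genes, a family expressed in chitin-secreting epithelia, were all lower. All 12 tested members were called (median -2.63), although 2 were called without the block and 6 without HDAC3 shRNA replicate 2 or control replicate 3. In replicates 1 and 2 alone 12 were called lower (median -3.37). In replicates 3 and 4 alone 1 was, Osi2, although the median there was -2.41. Osi2 (FBgn0037410) had 0, 0.439, 0.295 and 0.274 CPM in HDAC3 shRNA, against 0.837, 3.88, 13.5 and 3.78 CPM in control (-4.39, SE 1.0, adjusted p = 0.00169; -3.30 without control replicate 3). Osi19 (FBgn0037429) had 0, 0.634, 1.57 and 2.31 CPM in the knockdown, against 2.31, 12.4, 11.4 and 14.6 CPM in control (-3.14, SE 0.94, adjusted p = 0.00921; 0.106 without the block). HDAC3 shRNA replicate 1 had no read of either gene, and within each pair the knockdown was lower.

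Enzymes and matrix proteins of the cuticle and of apical cell extensions were lower too. Of 26 genes of chitin synthesis and binding 18 were called lower and none higher (median -1.92), 12 of them without the block and 12 on both replicate sides. obst-B (FBgn0027600), a chitin-binding protein gene, had 0.35, 2.05, 1.42 and 1.14 CPM in HDAC3 shRNA, against 5.52, 9.78, 9.48 and 10.7 CPM in control (-2.89, SE 0.30, adjusted p = 6.95e-07). The chitin synthase gene kkv (FBgn0001311) had 2.28, 3.71, 11 and 6.04 CPM in HDAC3 shRNA, against 13.1, 12.5, 34.4 and 22 CPM in control (-1.88, SE 0.22, adjusted p = 2.58e-06). In kkv both genotypes were highest in replicate 3, and the groups stayed apart. Of 18 genes of apical extensions and zona pellucida domain proteins, which shape denticles and hairs, 13 were called lower (5 without the block), with a median of -1.59. mwh (FBgn0264272), which limits hair number in the wing, had 0.934, 2.73, 4.62 and 1.96 CPM in HDAC3 shRNA, against 9.26, 9.66, 17.4 and 17.2 CPM in control (-2.41, SE 0.29, adjusted p = 2.67e-06). neo (FBgn0039704) had 0.875, 6.68, 8.6 and 4.15 CPM in HDAC3 shRNA, against 18.4, 16.9, 35.2 and 37.4 CPM in control (-2.45, SE 0.38, adjusted p = 4.10e-05). Septate junction genes, which seal the same epithelia, had 2 of 18 called lower (11.1%, under the 17.3% of all tested genes). The count was 1 without HDAC3 shRNA replicate 1 or control replicates 1 or 2, and the median was 0.07 (-0.13 with library totals). Of 14 tracheal genes 5 were called lower with the block and 0 without it, and the count was 3 when HDAC3 shRNA replicate 1 was left out and 9 when HDAC3 shRNA replicate 4 or control replicate 3 was. Their median was -1.40 on the side of replicates 1 and 2 and -0.48 on the other. In whole embryos, fewer cells of a type, less RNA per cell and a difference in embryo stage within the collections cannot be told apart.

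Most muscle structure genes were called lower, and some of the genes that specify mesoderm. Of 24 sarcomere genes 20 were called lower (11 without the block) and 16 on both replicate sides, and the median was -2.90 on the first side and -2.70 on the second. Mlp84B (FBgn0014863), a muscle LIM protein, had 1.28, 2.49, 5.7 and 4.31 CPM in HDAC3 shRNA, against 5.76, 9.12, 32.3 and 14.9 CPM in control (-2.10, SE 0.30, adjusted p = 1.85e-05). TpnC73F (FBgn0010424), a troponin C, had 0.233, 2.73, 3.83 and 3.02 CPM in HDAC3 shRNA, against 5.86, 16.9, 30.7 and 24.7 CPM in control (-3.03, SE 0.50, adjusted p = 7.94e-05). Replicate 1 was lowest in both genotypes, and no knockdown library reached the control range for either gene. Over the list this held for only 3 of the 24 genes, against 8.67% of all tested genes. Of 22 mesoderm and myoblast genes 10 were called lower (1 without the block), where the median was -1.43 on the first side and -0.47 on the second. slou, a muscle identity homeobox gene, was among the 3 that were called on both (-2.09, SE 0.41, adjusted p = 3.79e-04).

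Most basement membrane genes were lower. Of 14 tested 11 were called lower, also 11 in every fit without 1 library, 7 without the block and 8 on both sides (median -1.58). Of the other three, Plod, a collagen lysyl hydroxylase, was higher in all knockdown libraries than in any control library but under 2-fold (0.31, SE 0.094, adjusted p = 0.0107). SPARC (FBgn0026562), a collagen-binding protein of hemocytes and fat body, had 0.992, 3.22, 6.34 and 6.43 CPM in HDAC3 shRNA, against 7.78, 20.9, 33.3 and 22.9 CPM in control (-2.40, SE 0.33, adjusted p = 1.13e-05). Of 15 hemocyte genes 3 were called lower (6 without control replicate 3), a share near that of all tested genes. These were the crystal cell enzyme PPO2, the Runx factor lz that specifies crystal cells (-2.05, SE 0.36, adjusted p = 1.64e-04) and the peroxidasin gene Pxn (-1.76, SE 0.24, adjusted p = 1.33e-05). PPO2 (FBgn0033367) had 2.33, 4.49, 6.68 and 4.19 CPM in HDAC3 shRNA, against 32.5, 33.1, 52.4 and 37.4 CPM in control. It was several times lower within every pair (-3.15, SE 0.31, adjusted p = 4.22e-07), and the 3 genes were also called on both replicate sides and without the block.

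**Figure D4:**
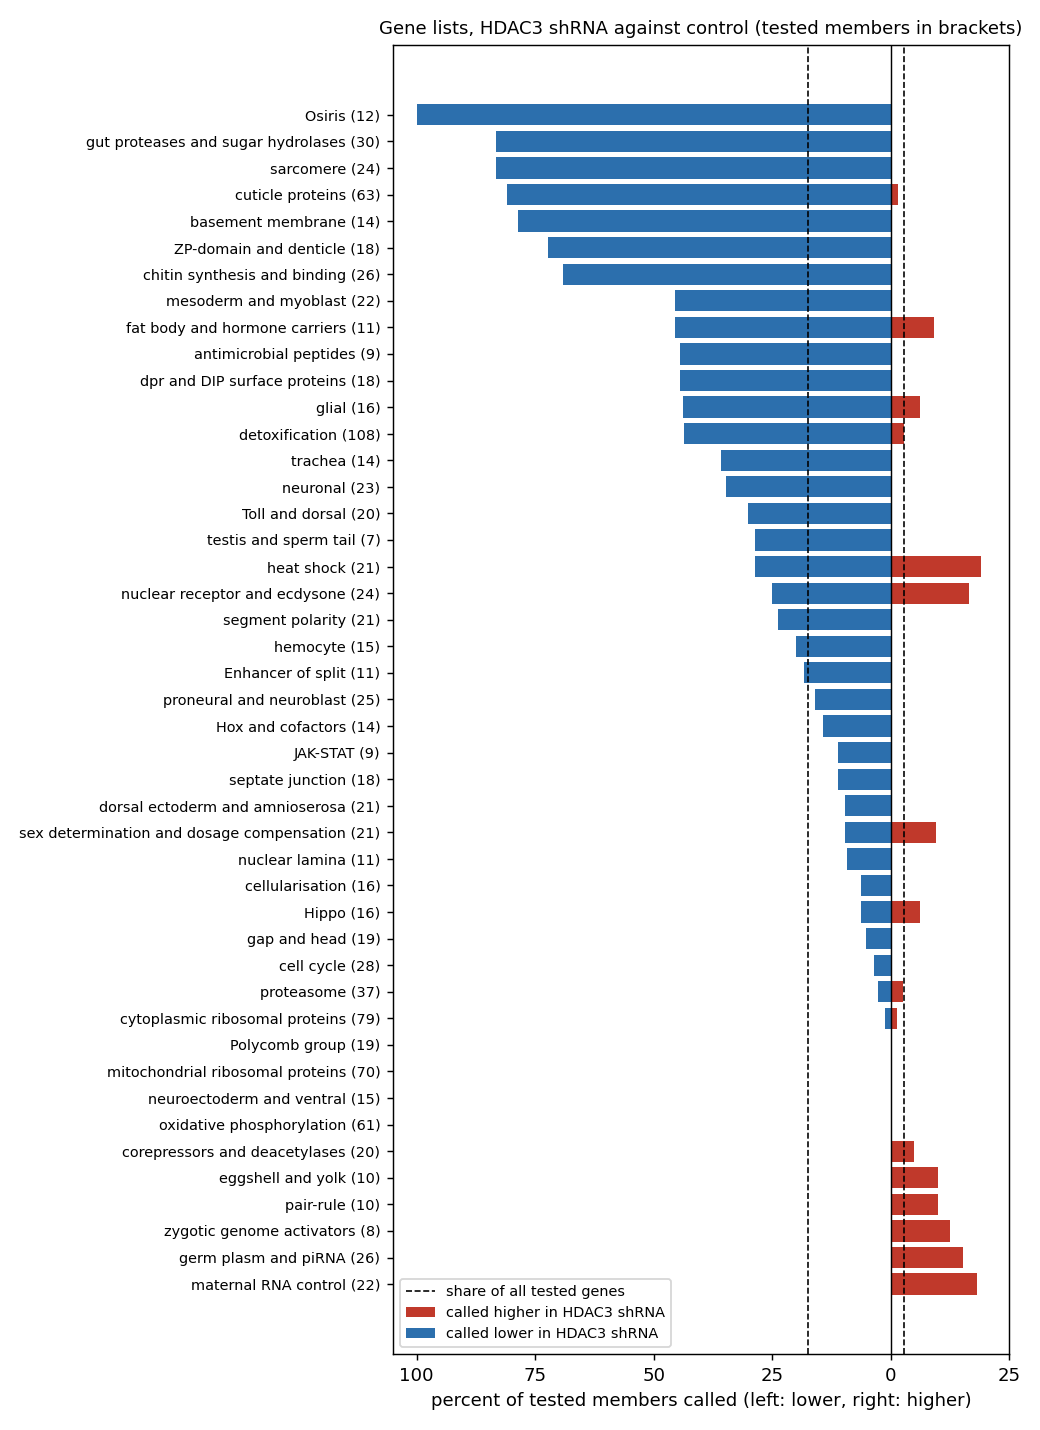
Percent of the tested members of each gene list (number tested in brackets) that were called lower (blue, left) or higher (red, right) in HDAC3 shRNA than in control, with the share of all tested genes as dashed lines (17.3% lower, 2.75% higher). Osiris, gut, sarcomere, cuticle, basement membrane, apical extension and chitin genes stand at the top, and germ plasm and maternal RNA genes have red bars without blue ones. The dashed lines are not matched for level, and 45.3% of genes at 1 to 3 CPM in control were called lower.

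Most digestive enzyme genes were called lower as well. Of 30 gut protease and sugar hydrolase genes 25 were called lower, but 10 without the block, without control replicate 3 or with only the 8 libraries in the fit. The median was -3.64, with 9 genes called lower in replicates 1 and 2, 16 in replicates 3 and 4 and 6 in both. The summed level of the list was 308, 282, 185 and 183 CPM in HDAC3 shRNA and 296, 308, 932 and 277 CPM in control. In replicate 1 the sum was not lower in the knockdown, and control replicate 3 stood far above the rest. Jon99Ciii (FBgn0003357) had 0, 0, 0.0983 and 0.0784 CPM in HDAC3 shRNA, against 0.0985, 0.835, 56.7 and 6.08 CPM in control (-7.66, SE 1.1, adjusted p = 2.49e-05; -5.84 without control replicate 3). Mal-A1 (FBgn0002570), a maltase, had 0.642, 1.37, 1.72 and 0.118 CPM in HDAC3 shRNA, against 6.8, 9.3, 15 and 17.5 CPM in control (-3.70, SE 0.68, adjusted p = 2.10e-04), and 7 genes in a row that include Mal-A1 to Mal-A4 (2R from 8439395 to 8460884) were all called lower. The metallothionein gene MtnA (FBgn0002868), which binds copper, had 0.467, 2.1, 3.93 and 0.823 CPM in HDAC3 shRNA, against 5.52, 14.6, 76.5 and 26.7 CPM in control (-3.95, SE 0.61, adjusted p = 4.42e-05; -3.07 without control replicate 3).

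Among 108 tested cytochrome P450, UDP-glycosyltransferase and glutathione transferase genes, which modify hormones and foreign compounds, 47 were called lower (33 without the block, 30 on both sides), 3 higher and 58 not called. Cyp6a20 (FBgn0033980) had 0.642, 1.27, 0.835 and 0.549 CPM in HDAC3 shRNA, against 5.32, 5.31, 6.16 and 4.9 CPM in control (-2.76, SE 0.33, adjusted p = 2.58e-06). Ugt36E1 (FBgn0027070), in contrast, had 143, 146, 80.8 and 82.2 CPM in HDAC3 shRNA, against 49.5, 55.6, 23.7 and 24.9 CPM in control (1.61, SE 0.097, adjusted p = 1.17e-09). Cyp6d4 (FBgn0039006) had 88.5, 72.8, 82.3 and 77.1 CPM in HDAC3 shRNA, against 30.2, 36, 23.9 and 28.7 CPM in control (1.45, SE 0.14, adjusted p = 2.95e-07). Both genes that rose did so in every pair, with no overlap between the genotypes.

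In the nervous system glial, neuronal and surface protein genes were among the lower calls. Of 16 glial genes 7 were called lower (2 without the block) and 1 higher. Gs2 (FBgn0001145), the glutamine synthetase of glia, had 5.54, 9.95, 11.3 and 5.37 CPM in HDAC3 shRNA, against 52.8, 53, 74.8 and 94.5 CPM in control (-3.09, SE 0.35, adjusted p = 1.74e-06). wrapper (FBgn0025878), a surface protein of midline glia, had 0.583, 0.536, 1.28 and 1.06 CPM in HDAC3 shRNA, against 3.6, 4.05, 5.31 and 5.65 CPM in control (-2.48, SE 0.31, adjusted p = 5.32e-06). glec (FBgn0015229), a carbohydrate-binding protein, moved the other way, with 129, 209, 106 and 62.8 CPM in HDAC3 shRNA, against 27.9, 31.4, 42.2 and 34.4 CPM in control (1.77, SE 0.27, adjusted p = 3.62e-05; 2.48 in replicates 1 and 2 and 1.08 in replicates 3 and 4). These 3 genes were called on both replicate sides and without the block.

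Of 23 neuronal genes 8 were called lower with the block, 1 without it, 5 without HDAC3 shRNA replicate 1 and none on both sides, with a median of -0.91. Of 25 proneural and neuroblast genes 4 were called lower (7 without control replicate 3), which at 16% is near the 17.3% of all tested genes. In the family of dpr and DIP recognition proteins 8 of 18 were called lower, 2 without the block, 2 with only the 8 libraries in the fit and 5 without HDAC3 shRNA replicate 1. This 44.4% is near the 45.3% among all tested genes at 1 to 3 CPM in control. The family's 32 genes summed to only 28.9 to 50.6 CPM in control. dpr6 (FBgn0040823) was the one called on both sides. It had 0.7, 0.78, 0.54 and 0.235 CPM in HDAC3 shRNA, against 6.94, 9.54, 4.29 and 4.8 CPM in control (-3.54, SE 0.30, adjusted p = 6.50e-08).

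Genes that pattern the early embryo were mostly within 2-fold over all replicates, and their calls and medians depended on the replicate side. The lists of gap and head, pair-rule, segment polarity, Hox, dorsal ectoderm, neuroectoderm and Enhancer of split genes had 1, 0, 5, 2, 2, 0 and 2 members called lower out of 19, 10, 21, 14, 21, 15 and 11 tested, which is near or below the 17.3% of all tested genes except for segment polarity. Without the block none was called lower in these lists. In replicates 1 and 2 alone the lower counts were 14, 8, 15, 9, 12, 9 and 7 in the same order, against 1999 over all genes. In replicates 3 and 4 alone 1 segment polarity gene, sens-2, was called lower and none in the other lists, against 943 over all genes. Their medians were between -1.08 and -1.28 on the side of replicates 1 and 2 and between -0.16 and -0.43 on the other. Egfr (FBgn0003731), the EGF receptor, had 70.5, 55.2, 168 and 157 CPM in HDAC3 shRNA, against 197, 125, 189 and 171 CPM in control (-0.77, SE 0.21, adjusted p = 0.00522). Replicates 1 and 2 of the knockdown stood apart below, and replicates 3 and 4 lay within the control range. Ance (FBgn0012037), a dorsal ectoderm peptidase, had 34.8, 33.4, 137 and 119 CPM in HDAC3 shRNA, against 102, 84.1, 186 and 234 CPM in control (-1.08, SE 0.16, adjusted p = 3.57e-05; -0.98 without HDAC3 shRNA replicate 1, -0.99 without control replicate 1, and 0.36 as adjusted p without the block). The counts moved with single libraries. Without control replicate 3 the lower count was 6 for gap and head, 2 for pair-rule, 4 for Hox, 5 for dorsal ectoderm, 2 for neuroectoderm and 5 for Enhancer of split genes, and without HDAC3 shRNA replicate 1 it was 0 for Hox and 1 each for dorsal ectoderm and Enhancer of split genes.

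Cellularisation genes, which are transcribed briefly in the blastoderm, had a median of -0.74 on the first replicate side and 0.35 on the second. Their summed level was 5327, 4232, 3468 and 4223 CPM in HDAC3 shRNA and 7342, 6275, 3066 and 2989 CPM in control, so that the span between replicates was wider in control than in the knockdown. Z600 (FBgn0004052), which delays mitosis at gastrulation, was the single call among 16, or 1 of 2 lower calls without HDAC3 shRNA replicate 4, control replicate 3 or control replicate 4 (-1.36, SE 0.34, adjusted p = 0.00302). It had 41.7, 46.8, 33.2 and 70.9 CPM in HDAC3 shRNA, against 221, 162, 53 and 69.8 CPM in control. The difference lay in replicates 1 and 2 (-2.11), whereas replicate 4 was alike in the genotypes.

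**Figure D5:**
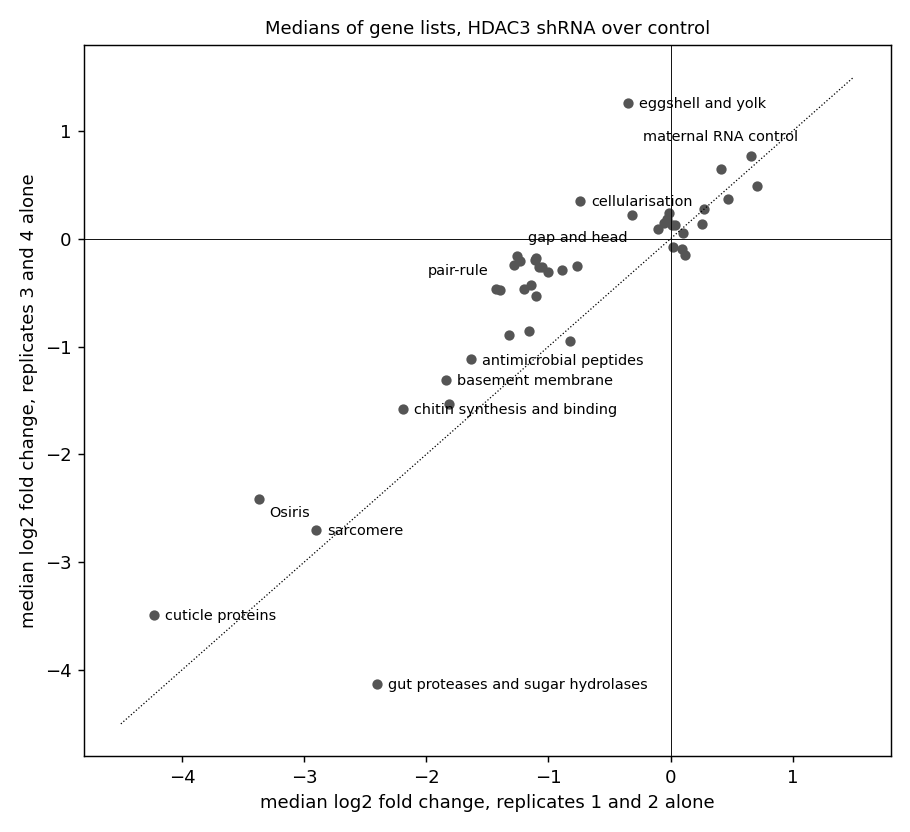
Median log2 fold change of HDAC3 shRNA over control of each gene list in replicates 1 and 2 alone (x axis) and in replicates 3 and 4 alone (y axis), one point per list, with the line of equal values dotted. Cuticle, Osiris, sarcomere and chitin genes are below 0 on both axes, while gap, pair-rule and other patterning lists are near -1.1 to -1.3 on the x axis and near -0.2 to -0.4 on the y axis.

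Some maternal and germline genes were called higher in the knockdown, and most were not called. Of 22 genes of maternal RNA control 21 had a fold change above 0 (median 0.85, or 0.64 with library totals) and 4 were called higher, none of them without the block, 1 with library totals, 2 when HDAC3 shRNA replicate 2 was left out and 1 when control replicate 1 was. gnu (FBgn0001120), an activator of the PNG kinase at egg activation, had 118, 131, 52.4 and 42.2 CPM in HDAC3 shRNA, against 40.8, 57.8, 24.1 and 20.7 CPM in control (1.21, SE 0.31, adjusted p = 0.0031; 0.24 without the block). In every pair gnu was higher in the knockdown, but replicates 3 and 4 of the knockdown lay within the control range. The summed level of this list was 14483, 13577, 8965 and 7704 CPM in HDAC3 shRNA and 8754, 8535, 4892 and 4017 CPM in control. Its part in the other calls was not tested.

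Of 26 germ plasm and piRNA genes 4 were called higher (2 without the block) and none lower, with a median of 0.51. bam (FBgn0000158), the differentiation factor of germline stem cell daughters, had 163, 160, 96.6 and 89.9 CPM in HDAC3 shRNA, against 47.3, 56.2, 32 and 24.6 CPM in control (1.69, SE 0.12, adjusted p = 1.02e-08). stil (FBgn0003527), needed for female germ cell survival, had 13.9, 13.5, 11.3 and 11 CPM in HDAC3 shRNA, against 2.51, 3.28, 3.14 and 2.19 CPM in control (2.16, SE 0.32, adjusted p = 2.59e-05). The 2 genotypes were well apart for both. Mnt (FBgn0023215), the Max partner listed with the activators of the zygotic genome, had 357, 243, 111 and 47.9 CPM in HDAC3 shRNA, against 85, 62.9, 34.5 and 18.5 CPM in control. Both genotypes were lowest in replicate 4 and highest in replicate 1, so that the groups overlapped while every pair differed (1.76, SE 0.21, adjusted p = 2.46e-06; 0.171 without the block). Eggshell and yolk genes, a sign of ovarian tissue, had 1 of 10 called higher (2 without control replicate 2), with a median of -0.35 on the first replicate side and 1.26 on the second, and their summed level was 140 to 436 CPM in HDAC3 shRNA and 80.9 to 171 CPM in control.

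Nuclear receptor and ecdysone pathway genes moved both ways, with 4 of 24 called higher and 6 lower (2 and 1 without the block). ftz-f1 (FBgn0001078), the receptor that works with Ftz in segmentation, had 507, 431, 229 and 188 CPM in HDAC3 shRNA, against 195, 197, 84.6 and 64.4 CPM in control (1.38, SE 0.12, adjusted p = 1.27e-07; 0.162 without the block). The ecdysone receptor gene EcR (FBgn0000546) had 313, 226, 154 and 119 CPM in HDAC3 shRNA, against 143, 127, 78.7 and 55.8 CPM in control, just past the 2-fold threshold (SE 0.11, adjusted p = 9.23e-07) and under it without HDAC3 shRNA replicate 4 (0.91), control replicate 1 (0.91) or control replicate 3 (0.99). Eip75B (FBgn0000568), a heme-binding receptor of the same cascade, had 75.9, 48.2, 78.5 and 58.8 CPM in HDAC3 shRNA, against 27.6, 25.1, 42.4 and 28.3 CPM in control (1.08, SE 0.17, adjusted p = 6.27e-05), with the call lost without HDAC3 shRNA replicate 4 or control replicate 1 (0.94 without the second). Each of the 3 was about 2-fold higher in every pair. The count of receptors called higher was 2 with library totals, without HDAC3 shRNA replicate 4 or without control replicate 1.

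Of 21 genes of sex determination and dosage compensation 2 were called higher and 2 lower. Each is 9.52%, against 2.75% higher and 17.3% lower over all tested genes. Either count fell to 1 without HDAC3 shRNA replicate 2 or control replicate 2. dsx (FBgn0000504), the last gene of the somatic sex cascade, had 6.71, 7.12, 3.68 and 2.9 CPM in HDAC3 shRNA, against 1.28, 0.656, 1.21 and 0.693 CPM in control (2.30, SE 0.33, adjusted p = 1.92e-05). msl-2 (FBgn0005616), the male-specific subunit of the dosage compensation complex, had 16.8, 11.2, 43.8 and 38.5 CPM in HDAC3 shRNA, against 71, 35.5, 68.7 and 55.1 CPM in control (-1.21, SE 0.21, adjusted p = 1.58e-04; 0.17 without the block). The msl-2 groups overlapped through replicate 2 of control, and the change was -1.90 in replicates 1 and 2 and -0.62 in replicates 3 and 4. X-linked genes were called higher in 3.62% and lower in 13.2% of 1632 tested, against 1.97% to 2.81% higher and 17.1% to 19.4% lower on the 4 large autosomal arms.

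Small heat shock protein genes also split. Of 21 heat shock genes 4 were called higher and 6 lower, and the counts were 0 higher and 3 lower without the block, 2 higher without HDAC3 shRNA replicates 2 or 4 or control replicates 3 or 4 and 3 lower without control replicate 2. Hsp67Bc (FBgn0001229) had 0.525, 2.88, 1.57 and 1.49 CPM in HDAC3 shRNA, against 8.96, 20.7, 8.94 and 14 CPM in control (-3.01, SE 0.32, adjusted p = 7.22e-07). Hsp27 (FBgn0001226) had 466, 485, 186 and 139 CPM in HDAC3 shRNA, against 135, 205, 79.2 and 60.4 CPM in control (1.36, SE 0.27, adjusted p = 4.37e-04; 0.191 without the block). The 2 genes lie within the same cluster on 3L, and they moved in opposite directions in all 4 pairs. Of 9 tested antimicrobial peptide and peptidoglycan recognition genes 4 were called lower, all of them recognition genes. Toll and Dorsal pathway genes had 6 of 20 called lower (1 without the block). JAK-STAT genes had 1 of 9 (11.1%, under the 17.3% of all tested genes). Fat body and hormone carrier genes had 5 of 11 called lower (1 without the block) and 1 higher. Of 16 Hippo pathway genes 1 was called higher, sd, and 1 lower. The higher count was 0 with library totals and 2 without HDAC3 shRNA replicates 3 or 4 or control replicate 4, and the lower count was 2 without control replicate 3.

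Ribosomal protein and oxidative phosphorylation genes had medians near 0. In edgeR 0 of 70 mitochondrial ribosomal protein genes and 0 of 61 oxidative phosphorylation genes were called (0 of either in DESeq2 with the block, and 31 and 17 with an unadjusted p under 0.05), and 1 of 79 cytoplasmic ribosomal protein genes was called higher and 1 lower. Their medians were 0.09, 0.10 and 0.03, and -0.11, -0.11 and -0.18 with library totals, which shifted the median of all genes from 0.008 to -0.197. RpL38 (FBgn0040007), the one called higher, had 139, 767, 512 and 517 CPM in HDAC3 shRNA, against 192, 191, 183 and 197 CPM in control (1.15, SE 0.37, adjusted p = 0.0141). HDAC3 shRNA replicate 1 was below control and the other three far above it, and the call was lost without HDAC3 shRNA replicate 2 (0.96, adjusted p = 0.0605) or control replicate 2 (0.98, adjusted p = 0.0573). Proteasome subunit genes had 33 of 37 fold changes above 0 and a median of 0.46 (0.25 with library totals), and 32 had an unadjusted p under 0.05, with 1 called each way, and 0 higher or 0 lower without HDAC3 shRNA replicate 4 or control replicate 1. Of 28 cell cycle genes Z600 alone was called.

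The largest changes included genes that also stood away from control in the rescues. Among the 12 largest increases (called, not overlapping and at least 5 CPM), y (FBgn0004034), needed for dark cuticle pigment, had 13.7, 10.5, 27.1 and 35.2 CPM in HDAC3 shRNA, against 1.23, 1.61, 3.2 and 1.44 CPM in control (fold change on the log2 scale 3.45, SE 0.30, adjusted p = 7.68e-08). It is mutant in the hairpin stock and averaged 14.7 to 28.1 CPM in the rescues. lncRNA:yar, the next gene on the chromosome, was called lower (-2.42, SE 0.58, adjusted p = 0.00198). thw (FBgn0037487) had 4.08, 2.58, 17.4 and 9.68 CPM in HDAC3 shRNA, against 0.295, 0.716, 2.23 and 0.48 CPM in control (3.14, SE 0.34, adjusted p = 9.79e-07), and averaged 9.64 to 11.7 CPM in the rescues. CG31221 (FBgn0051221) had 3.97, 3.46, 22.5 and 10.2 CPM in HDAC3 shRNA, against 0.295, 0.179, 1.03 and 0.746 CPM in control (4.01, SE 0.40, adjusted p = 4.37e-07), and averaged 7.11 to 10.8 CPM in the rescues. For these 3 genes the mean of every rescue was above the highest control library, as for CG17919 above and for dsx (1.56 to 2.44 CPM).

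Some of the 12 largest decreases were low in the rescues too. The gene narya (FBgn0031018, X from 19475063 to 19476055), a RING protein of meiotic recombination, had 0.233, 0.439, 0.295 and 0.549 CPM in HDAC3 shRNA, against 12, 13.8, 11.8 and 10.6 CPM in control (-4.99, SE 0.37, adjusted p = 1.70e-08), and averaged 0.74 to 0.872 CPM in the rescues. It lies within the span of CG32533, whose own change was -0.06 (SE 0.09). The serpin gene Spn28Da (FBgn0051902) had 0, 0.0975, 0.0983 and 0.0392 CPM in HDAC3 shRNA, against 2.95, 3.16, 4.59 and 10.4 CPM in control (-6.36, SE 0.64, adjusted p = 4.82e-07; -5.62 without HDAC3 shRNA replicate 4), and averaged 0.0262 to 0.0679 CPM in the rescues. CG12971 (-5.32) averaged 0.0789 to 0.255 CPM in the rescues, and its lowest control library had 0.492 CPM. Jon99Ciii averaged 0.0212 to 1.34 CPM in the rescues, against 0.0985 to 56.7 CPM in control. All of these comparisons share the 4 control libraries. Of the other stock markers, w had 0.7, 0.634, 1.38 and 0.941 CPM in HDAC3 shRNA, against 1.72, 1.61, 2.23 and 0.906 CPM in control, and was not called (-0.88, SE 0.37, adjusted p = 0.0542; -1.16, adjusted p = 0.0141, without control replicate 4). sc gave 0.09 (adjusted p = 0.73), v gave -0.11 (adjusted p = 0.861; 0.57 without control replicate 3), and sev was too low to be tested. How much of any change comes with the stock's genetic background cannot be told apart from the knockdown in these 8 libraries.

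Rescue means were less even for other genes. The gene kek4 (FBgn0032484, 2L from 13212335 to 13215350), a transmembrane protein of the Kekkon family, had the largest increase among genes of at least 5 CPM, with 2.92, 3.17, 8.89 and 9.76 CPM in HDAC3 shRNA, against 0.0985, 0.179, 0.181 and 0.0533 CPM in control (5.47, SE 0.77, adjusted p = 1.64e-05). Its mean was 5.94 CPM in the K26A rescue, 0.739 CPM in WT, 0.115 CPM in Y303F and 0.194 CPM in HEBI. Tektin-C (FBgn0035638), a protein of ciliary microtubules, had 0.0583, 0.536, 0.442 and 0.549 CPM in HDAC3 shRNA, against 6.89, 6.74, 14.7 and 12.8 CPM in control (-4.68, SE 0.31, adjusted p = 5.59e-09), and averaged 3.36 to 9.3 CPM in the rescues. sa (FBgn0002842), a testis-specific transcription cofactor, was at 0.117, 0, 0 and 0 CPM in HDAC3 shRNA, against 1.28, 1.31, 0.785 and 0.853 CPM in control (-5.20, SE 0.78, adjusted p = 2.95e-05; -7.16 without HDAC3 shRNA replicate 1), and averaged 0.0143 to 0.0511 CPM in the rescues. Tektin-C and sa are both on a list of 7 tested testis and sperm tail genes, of which the others were not called (1 was called higher without control replicate 3). The remaining increases on the list of the 12 largest were CG1998 (3.11), lncRNA:CR43837 (2.75), CG13252 (2.61), CG18278 (2.25) and asRNA:CR44124 (3.16), whose exons share 44.5% of their bases with another gene.

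Among abundant genes the changes were close to 2-fold. Trf2 (FBgn0261793), a TBP-related promoter factor, had 1009, 759, 740 and 504 CPM in HDAC3 shRNA, against 528, 340, 340 and 217 CPM in control (1.11, SE 0.096, adjusted p = 7.68e-08; 0.0706 without the block). It was about 2-fold higher in each pair. jigr1 (1.12), the engulfment adaptor ced-6 (1.24) and heca (1.14) were the other abundant genes called higher beside Smr, each with an adjusted p of 6.25e-08 or less. With library totals Trf2 (0.91), jigr1 (0.91) and heca (0.93) were under 2-fold. Without the block ced-6 was not called (adjusted p = 0.0886 in edgeR). Nrt (FBgn0004108), the adhesion protein Neurotactin, had 507, 362, 700 and 811 CPM in HDAC3 shRNA, against 1638, 1006, 985 and 993 CPM in control (-1.03, SE 0.20, adjusted p = 4.22e-04). It went under 2-fold without HDAC3 shRNA replicate 1 (-0.91), control replicate 1 (-0.90) or control replicate 2 (-0.86), and link (-1.13), dan (-1.09) and CG9775 (-1.06) did so without control replicate 1 (-0.96, -0.97 and -0.95) or control replicate 2 (dan -0.95, CG9775 -0.97). The laminin gene LanA (-1.20) was called in every fit without 1 library. Without the block Nrt (adjusted p = 0.0619), link (0.421), dan (0.592) and LanA (0.394) were not called, and in replicates 3 and 4 alone these 4 and CG9775 were under 2-fold.

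Some genes that were lower in the knockdown lay side by side. Counting neighbours among the tested genes, 64 runs of at least 4 consecutive genes were called lower, with 330 genes in all. How many runs the 17.3% share of lower calls gives by itself was not computed. The longest had 10 genes, one at 3L from 16281132 to 16345241 (CG13049 to CG4998, which was -4.56, or -2.95 without control replicate 3) and one at 3R from 30459521 to 30527037, which takes in the Jonah proteases Jon99Fii and Jon99Fi and the prolyl hydroxylases PH4alphaEFB, PH4alphaSG1 and PH4alphaSG2. Runs of 8 and 6 genes covered the Osiris cluster (3R from 6111671 to 6282495 and from 6299128 to 6341424), and a run of 5 held the nimrod genes NimB1 to NimB4 (2L from 13963507 to 13979569). Family members with similar sequences can share reads, so single members of these clusters are less certain than the clusters.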

How the data were processed

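RNA from whole embryos was sequenced in 24 libraries, of which 8 (4 HDAC3 shRNA and 4 control) carry this comparison. The authors deposited 1 table of raw read counts per gene for 17559 gene IDs, and per the submitters' processing notes STAR, featureCounts, DESeq2 and the dm6 assembly were used. The sources used here give neither versions nor the strand setting, so overlapping and antisense genes cannot be told apart, and genes that share exons are less certain. Each column was matched to a sample by its label, and 0 columns were of no sample. Of the IDs, 17253 were paired with symbols, and the 306 others are not named.

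Counts were fitted with edgeR 4.0.16 in R 4.3.3 (quasi-likelihood test, trimmed mean of M-values scaling, Benjamini-Hochberg adjustment) over all 24 libraries with genotype and replicate number as terms, after edgeR's filter on low counts, which left 10003 genes. Genes were called at an adjusted p up to 0.05 where they also differed by 1 or more on the log2 scale. The study describes the libraries as biological quadruplicates, with embryos collected for each replicate. Neither it nor the labels say what a shared replicate number stands for, so p-values measure the spread between these samples. The number was kept as a block because libraries with the same number deviated together. The correlation of HDAC3 shRNA with its own control number was 0.576, 0.636, 0.695 and 0.529, and over all 60 such pairs of genotypes it ran from 0.184 to 0.797. Between HDAC3 shRNA and control libraries of different numbers it was 0.163 to 0.478 within a replicate side and -0.657 to -0.249 across the sides. The shared deviation was therefore in part a split between the 2 sides. Alternatives were no block, only the 8 libraries, other scalings, no filter, DESeq2 1.42.0, either replicate side alone and each library left out. Limits for genes at 0 rest on 3 counts over a group and cover counting error only.

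Genes were named by a rule: the 12 largest changes in each direction among called genes whose groups do not overlap and that reach 5 CPM, up to 4 called members of each gene list (up to 2 with the smallest p where none was called), genes the study named, stock markers and neighbours of HDAC3, and the 5 most abundant genes called in each direction. Further genes were added after their values were seen, for their small p, their even levels or their place beside a named gene. The comparison, the lists and the rule were chosen with earlier results of these data known, and the pattern for eggshell genes was corrected after values were seen. On simulated counts for 9928 genes of this comparison the fit recovered 20, 38, 49 and 50 of 50 genes changed by 2, 4, 8 and 16-fold, and called 7 of 9730 unchanged genes. These counts were drawn from the fitted means and spread of the same model, with replicate effects alike in both genotypes. They therefore say nothing about calls where the genotype difference varies between replicates.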

Additional observations from a re-analysis of the deposited data

Results flagged for a closer look

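In 4 of 132 groups of 4 libraries (66 genes in both genotypes) 1 library lay far from the other 3, and chance alone gives about 1 in 20. TwdlB, a cuticle gene, reached 160 CPM in control replicate 3, against 0.0533 to 19.6 CPM in the other control libraries. The protease gene Jon99Ciii had 56.7 CPM in control replicate 3, against 0.0985 to 6.08 CPM in the others. Nrt, the adhesion protein Neurotactin, had 1638 CPM in control replicate 1, against 985 to 1006 CPM in the others. sa, a testis transcription cofactor, had 0.117 CPM in HDAC3 shRNA replicate 1 and 0 in the other 3 knockdown libraries.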

How the results depend on the processing

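No alternative turned the direction of any of the 161 named genes that were called, where it gave a value, and over all genes 2 were called in opposite directions on the 2 replicate sides. With the replicate block 275 genes were called higher and 1734 lower. Without it the counts were 140 and 697 in edgeR and 169 and 1084 in DESeq2. Scaling by library totals gave 167 higher genes (2120 lower), and replicates 3 and 4 alone gave 943 lower genes (243 higher). Leaving out 1 library at a time gave 224 to 331 higher and 1518 to 1897 lower genes. Among the named genes the call was lost for 69 without the block, for 54 in DESeq2 without it, for 57 in replicates 3 and 4 alone, for 13 with library totals and for 1 to 20 when 1 library was left out. Depth limits genes at 0 to bounds of 0.0359 CPM in HDAC3 shRNA and 0.0414 CPM in control over the group. HDAC3 itself was at 0 in the counts of every library of this comparison, 1 hairpin line was used, and the hairpin stock's background differs from the driver's.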

Other observations

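For some called genes the rescue libraries differed little between the 2 replicate sides. Called genes whose genotypes did not overlap numbered 165 higher and 761 lower. Among them, 30 higher and 194 lower genes had mean log2 rescue levels within 0.2 of each other on the 2 sides. Beside CG4004, GlyRS, CG8066 and Tep2 these included Sodh2, a sorbitol dehydrogenase, which was 17.6 to 25.1 CPM in HDAC3 shRNA and 6.64 to 8.9 CPM in control (1.39 on the log2 scale, SE 0.11, adjusted p = 3.80e-08 in edgeR's quasi-likelihood test). CG10877 was 151 to 205 CPM in HDAC3 shRNA and 57.6 to 78.5 CPM in control (1.36, SE 0.12, adjusted p = 6.50e-08). These genes were picked after their values were seen, and each was also called without the replicate block. The share of all tested genes within the 0.2 limit was not computed. Asking for genotypes without overlap also favours genes that vary little between replicates. The counts therefore do not show whether such genes are more frequent among the calls than elsewhere.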
